A study of Mus musculus with 12 samples.

Results

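The expression of 39 genes of protein folding and secretion in the endoplasmic reticulum (ER) was measured in fibroblasts of the mouse mammary gland. The genes were chosen by name for their known roles, with earlier results of these data known, so that their counts are a description of this list. All 39 symbols were found among the 27998 genes of the files, and all 39 passed the filter on low counts in every comparison. They were grouped by role. There were 8 genes for collagen modification and collagen chaperones, 7 general ER chaperones and disulfide isomerases, 13 genes of translocation and transport, and 11 genes of the unfolded protein response. The libraries were single-cell libraries from C57BL/6J mice aged 43 weeks, with 1 library per group. How many animals gave each library is not stated in the sources used here.

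Intact mice received no VCD (4-vinylcyclohexene diepoxide), a compound that depletes ovarian follicles. The other 11 groups received VCD at 160 mg/kg/day for 15 days, as a model of menopause. VCD_Vehicle received sesame oil, VCD_E2 received estradiol (E2) at 1 µg per animal per day for 1 week, and VCD_E2_P4 received E2 with progesterone (P4) at 1 mg per animal per day. VCD_E2_ICI received E2 with a single dose of 5 mg of ICI, an estrogen receptor antagonist. Food with a mixture of PBDEs (polybrominated diphenyl ethers, flame retardants) was given at a low dose (PBDE-47 at 0.05 mg/kg/day) for 20 weeks or at a high dose (1 mg/kg/day) for 1 week, so that dose and duration cannot be told apart. VCD_Low_PBDE and VCD_High_PBDE received no hormone. VCD_Low_E2 and VCD_High_PBDE_E2 received E2, and VCD_Low_E2_P4 and VCD_High_PBDE_E2_P4 received E2 + P4. Groups without PBDE ate matched food with DMSO. VCD_Vehicle_NormEnv is a further vehicle group that the labels do not describe beyond its name. The 9 VCD libraries of the layout of hormone (none, E2, E2 + P4) by PBDE (none, low, high) were used for the tests of hormone. Intact, VCD_E2_ICI and VCD_Vehicle_NormEnv enter the comparison of levels between populations, and their differences from other groups are given as values, with no test.

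Proteins that a cell secretes enter the ER through the Sec61 translocon, helped by the signal sequence receptor complex. They are folded by chaperones such as Hspa5 and by disulfide isomerases, and leave in COPII vesicles, while KDEL receptors bring escaped chaperones back. Procollagen needs more. Prolyl 4-hydroxylases hydroxylate its prolines, the chaperone Serpinh1 (HSP47) binds the triple helix, and Mia3 helps the large molecule into vesicles. When unfolded protein builds up, the sensors and transcription factors of the unfolded protein response, among them Atf6, Xbp1 and Atf4, act on chaperone genes. Fibroblasts make most of the collagen of the mammary stroma.

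The 12 libraries held 2497 to 10006 barcodes and 41737881 to 109224969 UMIs (unique molecular identifiers, each 1 counted transcript molecule), and 46257 of 58620 barcodes passed the filters. Among 30932 fibroblasts, a score over fixed marker panels gave 10396 cells the name Fib_0-like, 5916 cells Fib_1-like, 4100 cells Fib_2-like and 3795 cells Fib_3-like, while 6725 stayed unassigned. No member gene was used for this. Fib_2-like cells numbered 177 to 612 per library, and their leading gene against the other 3 populations was the panel gene Tnc. Their class is a range of a score rather than a sharp type, since 595 of the 4100 cells lay within 0.25 of a limit, and their median scores were 1.82 for Fib_2, -0.01 for Fib_1, -0.27 for Fib_3 and -0.90 for Fib_0. All 66 pairs of libraries shared cell barcodes, 14 pairs 27 to 185 of them and the other 52 pairs 1 to 20. Leaving out the 301 assigned cells concerned changed no count of members called in Fib_2-like cells. The 14 pairs lay within sets of libraries. Intact, VCD_Vehicle, VCD_E2, VCD_E2_P4 and VCD_Low_PBDE shared 95 to 185 barcodes with each other. VCD_Low_E2 and VCD_Low_E2_P4 shared 84, and VCD_Vehicle_NormEnv, VCD_High_PBDE and VCD_E2_ICI 27 to 35. At low and high PBDE the library without hormone was thus in no set with its E2 libraries. The part of these sets in the hormone differences was not tested. Levels are given as CPM, the UMIs of a gene per 1000000 UMIs of the cells summed per library and population.

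Promoters were read for 32 of the 39 genes, as the 250 bases before the start in RefSeq on GRCm38.p6. Kdelr2, Manf, Atf6, Creb3l1, Fkbp10, Ssr2 and Sec61a1 had no entry. The ER stress response element (ERSE), spelled CCAAT and then CCACG after 9 bases of any kind and searched on both strands, is the element through which Atf6 and Xbp1 act on chaperone genes. It was present in 33 of 27025 promoters (0.122%) and in those of 6 members, namely 5 of 7 general chaperones, 0 of 7 collagen genes with an entry, 0 of 10 transport genes and 1 of 8 genes of the unfolded protein response. The matches are shown because most general chaperones held one and no collagen gene with an entry did. Because the element is known for its role at chaperone genes, its presence there is a description and no test. They read 5′ to 3′ along the strand of the motif, with CCAAT and each CCACG in capitals. In Canx a further CCACG lies within the 9 bases of any kind. The match of Hspa5 lies 47 bases before the RefSeq start but within the gene as GENCODE annotates it, which starts earlier.
Calr (chr8:84847075-84847093, plus strand): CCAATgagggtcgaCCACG
Canx (chr11:50325800-50325818, minus strand): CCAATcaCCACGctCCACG
Dnajc3 (chr14:118937827-118937845, plus strand): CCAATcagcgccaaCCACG
Hsp90b1 (chr10:86705638-86705656, minus strand): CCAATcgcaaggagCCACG
Hsp90b1 (chr10:86705533-86705551, plus strand): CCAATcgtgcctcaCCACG
Hspa5 (chr2:34772025-34772043, plus strand): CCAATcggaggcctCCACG
Pdia6 (chr12:17266491-17266509, plus strand): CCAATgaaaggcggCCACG

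The promoters of Serpinh1, P4ha3, Kdelr3 and Ssr3, which are among the members with the largest E2 changes given next, are shown beside that of Pdia6, a disulfide isomerase with an ERSE. Each run reads 5′ to 3′ on the strand of the gene and leaves out bases within the annotated gene. Capitals mark CCACG on either strand and the CCAAT of a full ERSE. These promoters were chosen after the values were seen.
Serpinh1 (chr7:99353240-99353489, minus strand, 250 bases): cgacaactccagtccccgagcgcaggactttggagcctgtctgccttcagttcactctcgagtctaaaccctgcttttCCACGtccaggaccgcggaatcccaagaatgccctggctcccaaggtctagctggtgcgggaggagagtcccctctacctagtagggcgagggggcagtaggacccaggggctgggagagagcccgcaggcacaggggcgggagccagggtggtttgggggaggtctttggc
P4ha3 (chr7:100285270-100285519, plus strand, 250 bases): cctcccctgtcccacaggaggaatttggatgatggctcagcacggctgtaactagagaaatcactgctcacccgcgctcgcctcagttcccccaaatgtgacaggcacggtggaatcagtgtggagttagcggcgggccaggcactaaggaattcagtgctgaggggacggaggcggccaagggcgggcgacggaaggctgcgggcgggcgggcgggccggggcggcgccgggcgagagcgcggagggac
Kdelr3 (chr15:79516158-79516407, plus strand, 250 bases): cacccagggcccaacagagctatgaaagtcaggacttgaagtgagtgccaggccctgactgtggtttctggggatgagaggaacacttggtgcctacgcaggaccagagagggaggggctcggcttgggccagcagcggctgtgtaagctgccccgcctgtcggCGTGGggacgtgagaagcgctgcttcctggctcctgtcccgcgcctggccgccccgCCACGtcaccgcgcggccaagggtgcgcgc
Ssr3 (chr3:65392624-65392803, minus strand, 180 bases): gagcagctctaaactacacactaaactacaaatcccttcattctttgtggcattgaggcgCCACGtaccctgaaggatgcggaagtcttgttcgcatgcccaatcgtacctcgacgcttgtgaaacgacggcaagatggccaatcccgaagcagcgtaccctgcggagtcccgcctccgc
Pdia6 (chr12:17266339-17266544, plus strand, 206 bases): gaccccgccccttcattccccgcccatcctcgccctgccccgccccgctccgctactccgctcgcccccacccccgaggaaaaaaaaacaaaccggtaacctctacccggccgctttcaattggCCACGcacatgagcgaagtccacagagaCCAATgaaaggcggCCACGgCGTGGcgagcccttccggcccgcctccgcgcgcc

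The short run CCACG, a part of the ERSE, was common. It was present in 28.2% of all promoters and in 21 of the 32 members, and the promoter of P4ha3 held none. The element TGACGTGG, which contains CCACG when read on the other strand, was found in 0.503% of all promoters and in those of Kdelr3 and Sec24d. No member promoter held the estrogen response element, AGGTCA and then TGACCT after 3 bases (0.0148% of all promoters), or the cyclic AMP response element TGACGTCA (1.62%). The run AGGTCA alone was found in 13.8% of all and in Herpud1, Pdia4 and Ssr4, and TGATGNAA in 3.53% of all and in Herpud1. A match in 250 bases is a description of the letters and not of a bound site.

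E2 was compared with no hormone in Fib_2-like cells, to ask which part of the secretory pathway was higher under hormone. Of the 39 genes, 27 were higher in the 6 libraries with E2 or E2 + P4 than in the 3 without hormone and 3 were lower, by edgeR's quasi-likelihood test with Benjamini-Hochberg adjustment over 11493 genes. Over all genes tested 18.2% were higher and 16.4% lower. The median log2 fold change was 0.52 over the members and -0.01 over all genes. The collagen and transport genes made up most of the increase, with 8 of 8 and 12 of 13 higher. The unfolded protein response genes were split, with 3 higher and 3 lower of 11. In 25 members each of these 6 libraries lay above each of these 3, which held for 17.6% of all genes. Atf4 was the member for which all 6 lay below (10.6% of all genes).

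**Figure D1:**
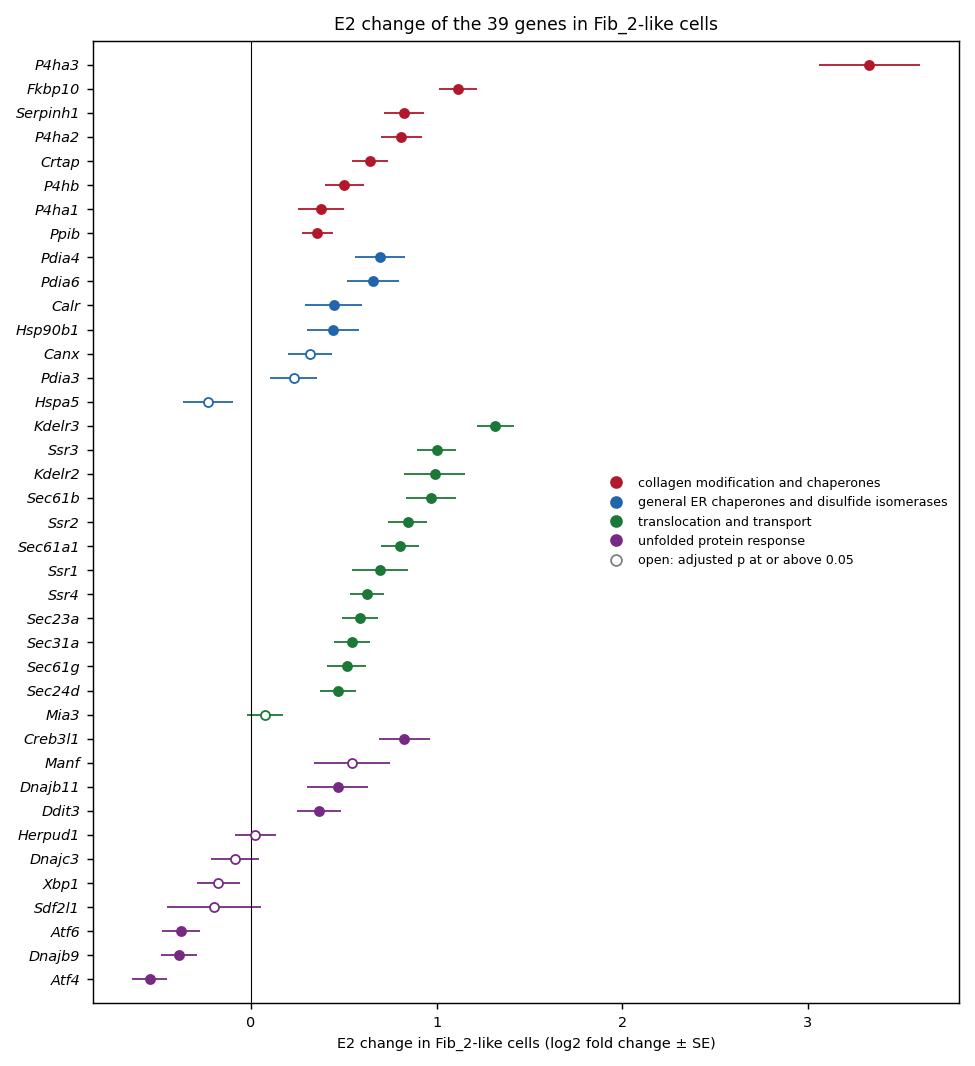
The x axis gives the E2 change of each of the 39 genes in Fib_2-like cells as a log2 fold change, with the standard error as a bar, and genes are ordered within 4 coloured role groups. Filled points are the 27 genes called higher and the 3 called lower, and P4ha3 lies farthest to the right at 3.33.

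In what follows, values are listed for PBDE none, low and high, in that order, within each hormone group. Serpinh1, the collagen chaperone HSP47 (chromosome 7, 99345376 to 99353239 on GRCm38, minus strand), was at 1296, 1060 and 1438 CPM without hormone, 2131, 2112 and 2097 CPM with E2 and 2195, 2455 and 2827 CPM with E2 + P4. Every E2 library was above every library without hormone, and the log2 fold change was 0.82 ± 0.11 (SE; adjusted p = 0.000234). P4ha3, a catalytic subunit of prolyl 4-hydroxylase (chromosome 7, 100285520 to 100319699, plus strand), was at 4.95, 1.83 and 4.48 CPM without hormone, 48.0, 37.6 and 22.4 CPM with E2 and 41.4, 31.7 and 37.0 CPM with E2 + P4. The groups were far apart, with a log2 fold change of 3.33 ± 0.27 (adjusted p = 1.15e-05).

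Fkbp10, a prolyl isomerase that works on procollagen (chromosome 11, 100415697 to 100424824, plus strand), was at 97.4, 95.5 and 110.0 CPM without hormone, 206, 196 and 192 CPM with E2 and 274, 256 and 236 CPM with E2 + P4. Its log2 fold change was 1.12 ± 0.10 (adjusted p = 2.6e-05), with no overlap of the groups. Ppib, the cyclophilin that forms a complex with Crtap and a prolyl 3-hydroxylase (chromosome 9, 66060222 to 66066623, plus strand), was at 1033, 962 and 826 CPM without hormone, 1344, 1211 and 1076 CPM with E2 and 1413, 1300 and 1114 CPM with E2 + P4. The step was the smallest of the 8 collagen genes, at 0.36 ± 0.08 (adjusted p = 0.00712), and its call was lost in 2 of the alternatives. The other 4 members of this group, P4ha2, Crtap, P4hb and P4ha1, rose by 0.81, 0.64, 0.50 and 0.38 on the log2 scale, and the group's median was 0.73. The call of P4ha1 was lost in 11 of the alternatives, among them leaving out VCD_E2 and adding the library code (0.27).

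Of the general chaperones, 4 of 7 were higher and none was lower, with a median of 0.44. Pdia4, a disulfide isomerase (chromosome 6, 47796141 to 47813430, minus strand), was at 82.4, 70.5 and 84.6 CPM without hormone, 160, 156 and 113 CPM with E2 and 115, 115 and 133 CPM with E2 + P4, a log2 fold change of 0.69 ± 0.14 (adjusted p = 0.00261). Pdia6, a further disulfide isomerase (chromosome 12, 17266545 to 17284770, plus strand), was at 354, 305 and 322 CPM without hormone, 642, 630 and 384 CPM with E2 and 517, 512 and 523 CPM with E2 + P4, a log2 fold change of 0.66 ± 0.14 (adjusted p = 0.0042). In both genes the groups of the layout did not overlap, and VCD_High_PBDE_E2 was the lowest library under hormone. Intact, which is outside the layout, was above VCD_Vehicle for Pdia4 by a log2 ratio of at least 0.5. Against Intact the E2 libraries of Pdia4 were not all above. Calr, the lectin chaperone calreticulin (chromosome 8, 84841850 to 84846934, minus strand), was at 715, 658 and 728 CPM without hormone, 1230, 1128 and 735 CPM with E2 and 916, 841 and 1065 CPM with E2 + P4. For Calr VCD_High_PBDE_E2 was just above the highest library without hormone, and the log2 fold change was 0.44 ± 0.15 (adjusted p = 0.0436).

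Hspa5, also known as BiP, is the main Hsp70 of the ER and a common readout of ER stress (chromosome 2, 34771970 to 34777547, plus strand). It was at 798, 913 and 1064 CPM without hormone, 939, 953 and 676 CPM with E2 and 727, 795 and 788 CPM with E2 + P4. The groups overlapped, with a log2 fold change of -0.23 ± 0.13 (adjusted p = 0.202). Of the others, Hsp90b1 rose by 0.44 on the log2 scale, while Canx (0.32) and Pdia3 (0.23) did not pass the test. The calls of Calr and Hsp90b1 rested on single libraries: leaving out VCD_Vehicle, VCD_E2, VCD_Low_PBDE, VCD_Low_E2 or VCD_High_PBDE_E2_P4, each alone, left 2 of the 7 chaperones called, and leaving out VCD_High_PBDE_E2 gave 6. All of Hspa5, Calr, Canx, Hsp90b1 and Pdia6 hold an ERSE before the RefSeq start, shown above, and 3 of these 5 were called higher.

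Of the genes of translocation and transport, 12 of 13 were higher, with a median of 0.70. Kdelr3, a KDEL receptor that returns chaperones to the ER (chromosome 15, 79516411 to 79527739, plus strand), was at 79.5, 73.9 and 72.2 CPM without hormone, 188, 159 and 140 CPM with E2 and 257, 228 and 204 CPM with E2 + P4. The 3 hormone groups were in order and did not overlap, and the log2 fold change of E2 was 1.32 ± 0.10 (adjusted p = 6.43e-06). Kdelr2, the related receptor (chromosome 5, 143403838 to 143421901, plus strand), was at 247, 173 and 317 CPM without hormone, 501, 469 and 439 CPM with E2 and 436, 561 and 553 CPM with E2 + P4, a log2 fold change of 0.99 ± 0.16 (adjusted p = 0.001).

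Ssr3, a subunit of the signal sequence receptor beside the translocon (chromosome 3, 65379655 to 65392623, minus strand), was at 165, 169 and 186 CPM without hormone, 358, 343 and 311 CPM with E2 and 391, 351 and 388 CPM with E2 + P4. Its log2 fold change was 1.00 ± 0.10 (adjusted p = 5.19e-05). Sec61g, the small gamma subunit of the translocon (chromosome 11, 16500530 to 16508484, minus strand), was at 479, 475 and 381 CPM without hormone, 749, 654 and 496 CPM with E2 and 824, 617 and 620 CPM with E2 + P4, a log2 fold change of 0.52 ± 0.10 (adjusted p = 0.0032). Neither gene overlapped between the groups. The translocon subunits Sec61b and Sec61a1 rose by 0.97 and 0.80 on the log2 scale, and the other subunits of the signal sequence receptor, Ssr2, Ssr1 and Ssr4, by 0.84, 0.70 and 0.62. The COPII coat genes Sec23a, Sec31a and Sec24d rose by 0.59, 0.55 and 0.47. Mia3, which helps procollagen leave the ER, was the member of the group that was not called (0.07 ± 0.10).

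Among the unfolded protein response genes the median log2 fold change was -0.09. Creb3l1, an ER membrane transcription factor known for acting on collagen genes (chromosome 2, 91982328 to 92024502, minus strand), was at 104, 87.9 and 118 CPM without hormone, 188, 174 and 130 CPM with E2 and 217, 217 and 214 CPM with E2 + P4. It was the member of this group whose 6 E2 libraries all lay above these 3, with a log2 fold change of 0.83 ± 0.14 (adjusted p = 0.00103). VCD_Vehicle_NormEnv, which has no hormone and is not among the 3, was above VCD_Vehicle by a log2 ratio of at least 0.5. Against that library the E2 libraries of Creb3l1 were not all above. Atf4, the transcription factor of the PERK arm (chromosome 15, 80255184 to 80257541, plus strand), was at 453, 375 and 362 CPM without hormone, 304, 304 and 251 CPM with E2 and 271, 275 and 271 CPM with E2 + P4. Every E2 library was below every library without hormone, and the log2 fold change was -0.55 ± 0.09 (adjusted p = 0.00111).

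Dnajb11, a co-chaperone of Hspa5 (chromosome 16, 22857845 to 22879634, plus strand), was at 70.3, 68.4 and 82.6 CPM without hormone, 123, 122 and 69.1 CPM with E2 and 114, 105 and 98.4 CPM with E2 + P4, and passed the test narrowly (0.47 ± 0.17, adjusted p = 0.0485), a call that was lost in 13 of the alternatives. Manf, a secreted protein induced in ER stress (chromosome 9, 106838312 to 106891979, minus strand), was at 145, 180 and 236 CPM without hormone, 335, 285 and 178 CPM with E2 and 304, 318 and 280 CPM with E2 + P4, and missed it (0.55 ± 0.21, adjusted p = 0.0608). In both genes VCD_High_PBDE_E2 lay within the range of the libraries without hormone. Ddit3 (CHOP), a target of Atf4, rose by 0.37 on the log2 scale, a call that was lost in 11 of the alternatives, among them DESeq2 and thinned cells (0.16). Dnajb9, a co-chaperone that damps the sensor Ire1, fell by 0.39, and the sensor Atf6 fell by 0.38, a call that was lost in 6 of the alternatives (3 for Dnajb9). Herpud1 (0.02), Dnajc3 (-0.09), Xbp1 (-0.18) and Sdf2l1 (-0.20) did not pass the test.

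**Figure D2:**
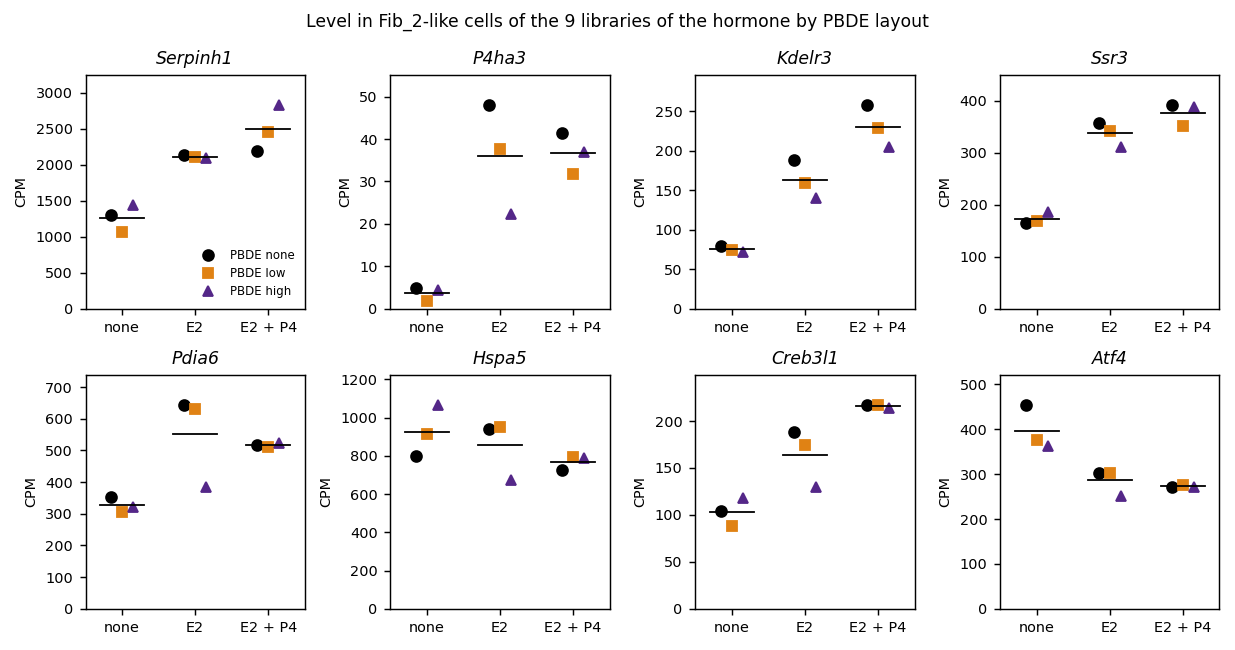
Each panel gives the CPM of a gene in Fib_2-like cells on an axis from 0, by hormone group, with 1 point per library shaped by PBDE level and a line at the mean of the 3 libraries. Serpinh1, P4ha3, Kdelr3, Ssr3 and Creb3l1 are higher under E2 in all 6 libraries, Atf4 is lower in all 6, and Hspa5 overlaps.

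VCD_High_PBDE_E2 stood low for many members. Among the 6 E2 libraries it held the lowest value for 26 of the 39 genes, while it was lowest for 18.6% of the 7805 genes at a mean of at least 10 CPM. This was counted after the values were seen and was not tested. Its fibrillar collagen level was not the lowest of the 6.

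Summed over a role group, the collagen genes were at 2972, 2637 and 2903 CPM without hormone and between 4126 and 5108 CPM in the 6 E2 libraries. The transport genes were between 2040 and 2197 CPM without hormone and between 3021 and 4198 CPM with E2. Both sums were apart without overlap in the 9 libraries of the layout. Outside it, the collagen sum was 3664 CPM in VCD_Vehicle_NormEnv and 3347 CPM in Intact, and the transport sum 2512 and 2796 CPM, so that the gap was narrower. The general chaperones were between 3078 and 3426 CPM without hormone and between 3169 and 4779 CPM with E2, and the unfolded protein response genes between 1417 and 1518 CPM and between 1300 and 1693 CPM, so that both overlapped.

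Several other measures moved with E2 in the same cells. The 5 fibrillar collagen genes of a fixed list, Col1a1, Col1a2, Col3a1, Col5a1 and Col5a2, were all higher, with a median log2 fold change of 1.98, and took 1.16% to 1.57% of UMIs without hormone and 3.67% to 7.41% with E2. All 10 genes of a dissociation stress list, among them Fos, Jun and Hspa1a, were lower, with a median of -1.03, and their sum was 20516 to 27712 CPM without hormone and 9476 to 16298 CPM with E2. The median UMI count per Fib_2-like cell was 8422 to 10365 without hormone and 17042.5 to 27871 with E2. With cells thinned to 5000 UMIs, which left out 341 of the 4100 Fib_2-like cells for holding fewer, 24 members were higher and 2 lower. The share of all genes under thinning is not given here. Of the 8 genes of the Fib_2 panel itself, Mfap4 was higher and Tnc, Penk, Enpp2 and Scg3 were lower. The panels of the other populations moved in Fib_2-like cells too. Of the 7 Fib_1 genes, Cd36 (1.70), Cxcl14 (1.09), Fabp4 (0.86) and Lpl (0.35) were higher and Sparcl1 was lower (-0.75). Of the 8 Fib_3 genes 1 was higher and 5 lower, and of the 9 Fib_0 genes 1 was higher and 4 lower. Of the 6 fibroblast markers used to select cells, Lum (0.94) and Mmp2 (0.44) were higher and Gsn (-2.25), Serping1 (-1.34) and Dcn (-0.87) lower, and their sum was 5.40% to 6.21% of UMIs without hormone and 2.24% to 3.64% with E2. The part of the stress genes, and of the panel genes that define the class, in the members' changes was not tested.

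Markers of other cell types were summed in Fib_2-like cells. The selection allowed at most 2 detected markers of any other cell type per cell. Low sums follow in part from this and do not measure purity. Ptprc, Cd52, Epcam, Krt14, Pecam1 and Cspg4 are at 0 by the selection of cells, and so were Cidec and Higd1b in all 12 libraries. The 9 immune markers summed to 6.70 to 9.39 CPM without hormone and 5.75 to 15.4 CPM with E2, and the 6 endothelial markers to 6.90 to 8.96 CPM and 3.48 to 7.37 CPM. The 6 luminal markers summed to 8.53 to 9.46 CPM and 4.27 to 16.4 CPM, the 5 Schwann cell markers to 22.4 to 23.8 CPM and 22.5 to 28.3 CPM, and the 5 basal epithelial markers to 0.50 to 2.23 CPM and 0 to 0.90 CPM. The 5 pericyte markers summed to 4.95 to 6.97 CPM and 3.01 to 8.50 CPM, the 4 skeletal muscle markers to 3.98 to 5.89 CPM and 2.75 to 16.4 CPM, and the 4 adipocyte markers to at most 0.51 CPM. Plasma cell markers, which are of interest because plasma cells hold much ER, summed to 41.8 to 49.0 CPM without hormone and 231 to 371 CPM with E2, mostly from Sdc1, a proteoglycan that other cells also make (32.3 to 43.9 CPM and 216 to 362 CPM). Jchain was at 4.44 to 13.4 CPM and 6.11 to 48.9 CPM, and Mzb1 at most at 1.02 and 1.42 CPM and at 0 in 3 of the 12 libraries.

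The deposited files carry 1 of 2 codes, whose meaning the labels do not give, and the layout is spread over both unequally. All layout libraries without PBDE carry the first code and all with high PBDE the other. At low PBDE the library without hormone carries the first code and those with E2 or E2 + P4 the other. Hormone and code cannot be told apart at that level. Differences were taken within the layout libraries of the first code (2 without hormone, 2 with E2) and of the other code (1 without, 4 with E2). Intact and VCD_Vehicle_NormEnv, also without hormone, were left out. VCD_Vehicle_NormEnv carries the other code, and its collagen sum was 3664 CPM, against 2903 CPM in VCD_High_PBDE, the library used there. For the 27 members called higher the differences were 0.30 to 3.47 and 0.22 to 2.57 on the scale of log2(CPM + 1). For the 3 members called lower they were -0.52 to -0.32 and -0.43 to -0.18. For members whose groups did not overlap, these directions follow from that and are no further evidence.

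The wider secretory pathway was described with a list of 115 further genes, of which 108 were in the files and 101 were tested. In Fib_2-like cells 56 were higher with E2 and 3 were lower, against 18.2% and 16.4% of all genes, with a median log2 fold change of 0.41. Collagen modification genes were higher in 9 of 10 cases, folding and glycosylation genes in 13 of 25, and translocation and transport genes in 29 of 44. Of 22 genes of the unfolded protein response and of degradation 5 were higher and 3 lower, which is near the shares over all genes. The largest changes were those of Atf3, a stress transcription factor downstream of Atf4 that is also raised by tissue dissociation (-2.27 ± 0.15, adjusted p = 3.22e-06), and of the isomerase Fkbp11 (1.84 ± 0.10, adjusted p = 1.74e-06). The lysyl hydroxylase Plod2 (1.38 ± 0.10), the prolyl 3-hydroxylase P3h1 (1.28 ± 0.09) and the collagen isomerase Fkbp14 (1.19 ± 0.13) followed.

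With all fibroblasts of a library summed and not split into populations, 13 members were higher (10.4% of 14361 genes) and 3 lower (9.07%), with a median log2 fold change of 0.15. Of these 13, 5 were collagen genes and 5 transport genes. Here a change in the share of each population and a change within cells cannot be told apart.

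The other 3 fibroblast populations were fitted in the same way. In Fib_0-like cells 4 members were higher with E2 (5.62% of 12418 genes) and 2 lower (4.77%). P4ha3 was higher at 1.27 ± 0.30, and Ddit3, Ssr4 and Fkbp10 by 0.31, 0.28 and 0.24, while Atf4 (-0.44) and Dnajb9 (-0.24) were lower. In Fib_1-like cells 8 members were higher (5.2% of 11605 genes) and 1 lower (3.28%). P4ha3 changed there by 2.46 ± 0.39 and Sec61b by 0.54 ± 0.07, followed by Pdia4 at 0.43, and Atf4 was again lower at -0.41. Of the 10 dissociation stress genes 6 were lower there, with a median of -0.57, and 2 were lower in Fib_0-like cells, with a median of -0.06. Their part in the change of Atf4 was not tested. In Fib_3-like cells Ssr4 was higher at 0.51 ± 0.09 (2.46% of 11213 genes) and no member was lower (0.999%). At an unadjusted p under 0.05 there were 5 members higher and 4 lower in Fib_0-like, 18 and 1 in Fib_1-like and 5 and 2 in Fib_3-like cells, against 29 and 3 in Fib_2-like cells. DESeq2 called 2 higher and 2 lower in Fib_0-like, 7 and 1 in Fib_1-like and 2 and 0 in Fib_3-like cells. No share of all genes is given for the unadjusted and DESeq2 counts, so they have no baseline here. The calls in these 3 populations depended on which libraries were used: with 1 library left out, members called higher numbered 0 to 4 in Fib_0-like, 4 to 7 in Fib_1-like and 0 to 3 in Fib_3-like cells. With the library code as a term no member was called in Fib_0-like or Fib_3-like cells, and the call of Atf4 in Fib_1-like cells was lost. No share of all genes is given for these alternatives either. Members whose groups did not overlap numbered 3 above and 2 below in Fib_0-like (7.31% and 5.45% of all genes), 10 and 0 in Fib_1-like (7.42% and 3.65%) and 0 and 2 in Fib_3-like cells (3.43% and 5.93%).

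**Figure D3:**
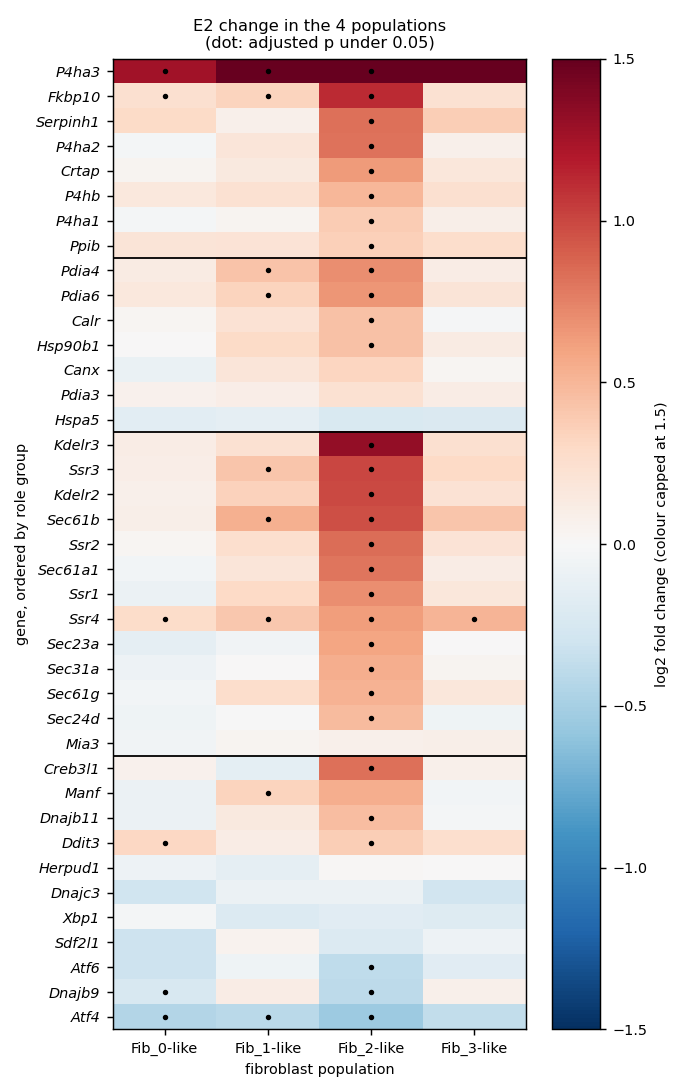
Rows are the 39 genes in role groups, columns are the 4 populations, and the colour gives the E2 change as a log2 fold change capped at 1.5, with a dot where the adjusted p was under 0.05. The Fib_2-like column carries 30 dots against 6, 9 and 1 in Fib_0-like, Fib_1-like and Fib_3-like cells.

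Whether the E2 change was larger in Fib_2-like cells was tested directly, as the E2 change there minus its mean over the other 3 populations, with each library as a block. For 26 members this difference was above 0 (13.8% of 12775 genes) and for 1, Dnajb9, below (14.8%). It was above 0 for 6 of 8 collagen genes, 5 of 7 general chaperones, 12 of 13 transport genes and, in the unfolded protein response group, Creb3l1, Dnajb11 and Manf. Kdelr3 differed by 1.11 ± 0.19 (adjusted p = 0.000101), Fkbp10 by 0.85 ± 0.12 (adjusted p = 1.31e-05) and Serpinh1 by 0.57 ± 0.10 (adjusted p = 0.000193). P4ha3 rose in Fib_0-like and Fib_1-like cells too, and its difference of 1.56 ± 0.60 missed the threshold (adjusted p = 0.0518). Ppib (0.13), Hspa5 (-0.07) and Atf4 (-0.15) were not called.

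Kdelr3 is given in single values. It had the largest such difference of the transport genes, while the median over the 39 members was 0.42. In Fib_0-like cells it was at 45.2 to 48.6 CPM without hormone and 36.5 to 73.0 CPM over both hormone groups, and in Fib_3-like cells at 48.6 to 63.4 CPM and 35.7 to 75.9 CPM. In Fib_1-like cells it was at 96.6 to 139 CPM without hormone, 113 to 126 CPM with E2 and 152 to 167 CPM with E2 + P4. In Fib_2-like cells it was at 72.2 to 79.5 CPM without hormone and 140 to 257 CPM with E2, and there all 6 E2 libraries lay above the other 3.

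The addition of P4 to E2 was compared within the same fit, over 3 libraries of each. In Fib_2-like cells Kdelr3 was higher with E2 + P4 than with E2 (0.51 ± 0.10, adjusted p = 0.0292), as 1 member of 39 (1.01% of all genes). Dnajb9 was lower (-0.62 ± 0.11, adjusted p = 0.017), as 1 member of 39 (1.63%). In the same comparison 4 of 5 fibrillar collagens were higher (median 0.60) and 4 of 10 dissociation stress genes lower (median -0.52). Their part in the change of these 2 members was not tested. Dnajb9 was at 93.6 to 105 CPM without hormone, 83.7 to 101 CPM with E2 and 55.3 to 70.8 CPM with E2 + P4, so that its E2 libraries overlapped with those without hormone and its E2 + P4 libraries lay below both. Both calls rest on few libraries. That of Kdelr3 was lost without any 1 of the 6 libraries with hormone, and that of Dnajb9 without VCD_E2, VCD_E2_P4, VCD_Low_E2 or VCD_Low_E2_P4. No member was called in Fib_0-like, Fib_1-like or Fib_3-like cells by edgeR, where 0.0322%, 0.207% and 0.0535% of all genes were higher and 0.0161%, 0.0776% and 0.00892% lower. At an unadjusted p under 0.05 there were 3, 11 and 4 members higher and 5, 1 and 0 lower. DESeq2 called 1 higher in Fib_1-like cells and 0 in Fib_0-like and Fib_3-like cells. The shares just given are for adjusted edgeR calls, so these counts have no baseline here.

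Levels were also compared between populations over all 12 libraries, with the mean of the remaining 3 populations as the reference. Fib_2-like cells had 27 members higher (32.5% of 11952 genes) and 4 lower (29.6%), and Fib_0-like cells 5 higher (35.4%) and 22 lower (37.6%). For Fib_1-like cells 14 were higher (30.3%) and 10 lower (30.6%), and for Fib_3-like cells 6 higher (25.5%) and 14 lower (25.6%). These 12 libraries include 7 with E2, so that the differences in level contain the E2 response. All 10 dissociation stress genes were lower in Fib_0-like cells (median -0.85) and higher in Fib_1-like cells (0.73), and in Fib_2-like cells 3 were higher and 3 lower. The 5 fibrillar collagens were lower in Fib_0-like cells (-1.18) and higher in Fib_2-like cells (0.70). The part of either in the members' levels was not tested. In the 3 VCD libraries without hormone of the layout, a fit added after the values were seen, Fib_2-like cells had 5 members higher (17.7% of all genes) and 5 lower (16.3%), and Fib_0-like cells 12 higher (28.8%) and 13 lower (27.9%). The split with most members higher for Fib_2-like and lower for Fib_0-like cells did not show in these 3 libraries, where 16 of the 27 members higher for Fib_2-like cells had a value below 0. The collagen genes were the exception for Fib_0-like cells, with 7 of 8 lower over the 12 libraries and 7 of 8 lower without hormone, among them Fkbp10, P4ha2 (-0.64) and Serpinh1 (-0.55). P4ha3 went the other way without hormone, where it was called higher (0.97), and was not called over the 12 libraries. Over the 12 libraries Kdelr3 differed by 0.86 ± 0.10 for Fib_2-like, 0.82 ± 0.10 for Fib_1-like and -1.04 ± 0.11 for Fib_0-like cells. Without hormone these values were 0.12, 1.02 and -0.71, and the first was not called (adjusted p = 0.332). Fkbp10 followed with 0.74, 0.65 and -1.03, and with 0.22, 0.77 and -0.83 without hormone. Sdf2l1, a partner of Dnajb11 in folding complexes, went the other way, at 0.82 ± 0.06 for Fib_0-like and -0.57 ± 0.07 for Fib_2-like. Mia3 did the same, with 0.49 and -0.29. Both kept their calls without hormone, at 0.96 and -0.57 for Sdf2l1 and at 0.56 and -0.32 for Mia3. P4ha2 was highest in Fib_1-like cells, with a difference of 0.93 ± 0.06 (0.97 without hormone).

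**Figure D4:**
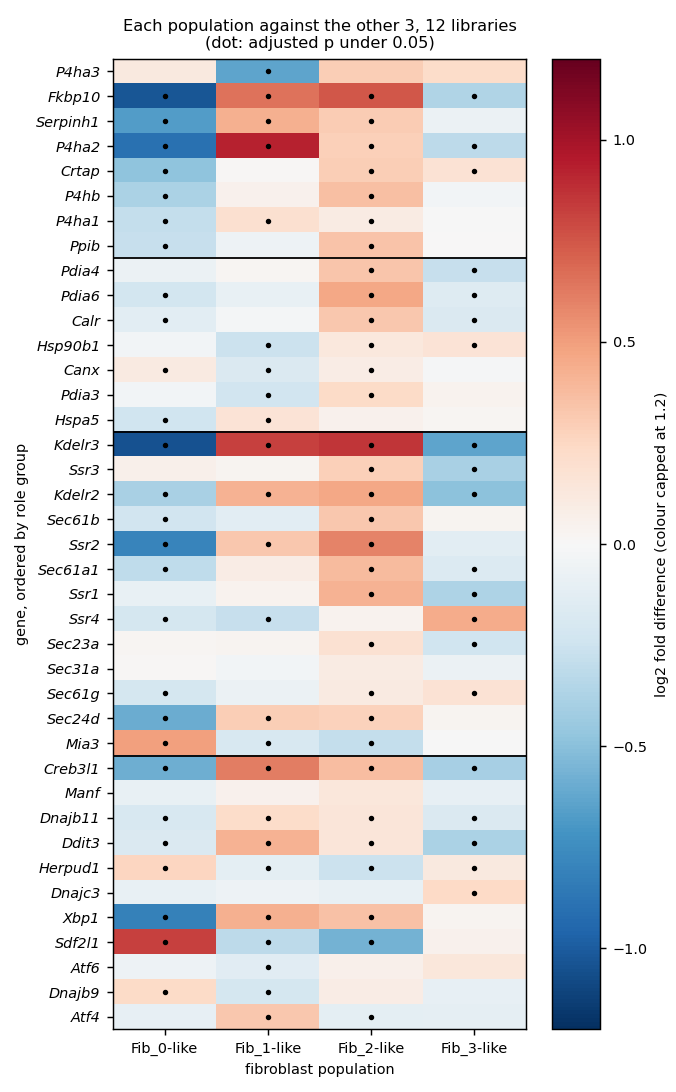
Rows are the 39 genes in role groups, columns are the 4 populations, and the colour gives the log2 fold difference in level from the mean of the remaining 3 capped at 1.2, with a dot where the adjusted p was under 0.05. Over these 12 libraries, 7 of them with E2, Fib_0-like cells are lower for 22 genes and Fib_2-like cells higher for 27, which became 13 and 5 in the 3 libraries without hormone.

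Free RNA in the droplets was gauged from immune cells, which should not make collagen. Pooled over all libraries, Serpinh1 was at 42.5 CPM in immune cells and 1961 CPM in Fib_2-like cells, Fkbp10 at 3.83 and 184 CPM, Kdelr3 at 3.28 and 160 CPM, and P4ha3 at 0.77 and 23.6 CPM. P4ha2 was at 3.51 and 72.0 CPM and Crtap at 11.8 and 154 CPM. Immune cells held more of the other 3 collagen genes, with P4ha1 at 37.6 and 114 CPM, P4hb at 131 and 364 CPM and Ppib at 468 and 1161 CPM, so that for these and for Hspa5 (775 and 834 CPM) the level in immune cells does not gauge free RNA.

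For the 3 groups outside the layout there is 1 library each and no test, and the comparisons that follow share the libraries VCD_Vehicle, VCD_E2, VCD_E2_ICI and VCD_Vehicle_NormEnv. Members past a fold of 0.5 on the scale of log2(CPM + 1) are counted in Fib_2-like cells, with the share of all genes past it. VCD_E2 was higher than VCD_Vehicle for 24 members (15.5%) and lower for Atf4 (14.3%). VCD_E2_ICI, with the antagonist added, was lower than VCD_E2 for 10 members (14.9%) and higher for 0 (12.3%). These 10 were P4ha3, P4ha2, Fkbp10, Kdelr3, Sec61b, Ssr1, Ssr3, Ssr4, Creb3l1 and Manf. VCD_E2_ICI was higher than VCD_Vehicle for 10 members as well (7.54%), namely Calr, Hsp90b1, Pdia4, Pdia6, Serpinh1, P4ha3, Kdelr2, Ssr2, Manf and Sdf2l1, and lower for Atf4 (9.17%). The libraries VCD_E2 and VCD_Vehicle carry the first code and VCD_E2_ICI the other, so that ICI and the code cannot be told apart in these comparisons. Against VCD_Vehicle_NormEnv, the vehicle library with the same code, VCD_E2_ICI was higher for Crtap and Pdia3 (10.2%) and lower for Creb3l1 (8.65%).

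The values of 7 members, chosen after they were seen, are given for these single libraries. P4ha3 was at 7.92 CPM in VCD_E2_ICI (95% exact Poisson interval 5.13 to 11.7, for counting error only), at 48.0 CPM in VCD_E2 (41.5 to 55.2) and at 4.95 CPM in VCD_Vehicle (3.31 to 7.11). Creb3l1 was at 93.5 CPM with ICI, 188 CPM with E2 and 104 CPM with vehicle. Ssr3 was at 186, 358 and 165 CPM, and Kdelr3 at 102, 188 and 79.5 CPM. In these genes the ICI library was nearer to VCD_Vehicle than to VCD_E2. Serpinh1 was at 2072 CPM with ICI (2022 to 2122), 2131 CPM with E2 (2086 to 2176) and 1296 CPM with vehicle. Calr was at 1012, 1230 and 715 CPM, and Pdia6 at 540, 642 and 354 CPM, so that these 3 stayed nearer to the E2 library than to VCD_Vehicle. Against VCD_Vehicle_NormEnv the difference was smaller, with a log2 ratio of 0.18 for Serpinh1 (1829 CPM in VCD_Vehicle_NormEnv), against 0.68 relative to VCD_Vehicle. The median UMI count of Fib_2-like cells was 11349 with ICI, 17830 with E2 and 8422 with vehicle.

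Intact mice were higher than VCD_Vehicle for 5 members, Kdelr2, Kdelr3, Ssr3, Pdia4 and Manf (8.75% of all genes), and lower for 0 (5.56%). VCD_Vehicle_NormEnv was higher than VCD_Vehicle for 6, Creb3l1, Kdelr2, Kdelr3, P4ha3, Sdf2l1 and Ssr2 (7.67%), and lower for 0 (11.5%). Intact mice keep ovarian follicles and so have ovarian hormones of their own, and VCD_Vehicle_NormEnv carries the other library code, so that neither is a replicate of VCD_Vehicle. Serpinh1 was at 1563 CPM in Intact, which like VCD_Vehicle_NormEnv lay between the VCD libraries without hormone and those with E2. Kdelr3 was at 119 and 118 CPM, and Atf4 at 394 and 377 CPM.

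**Figure D5:**
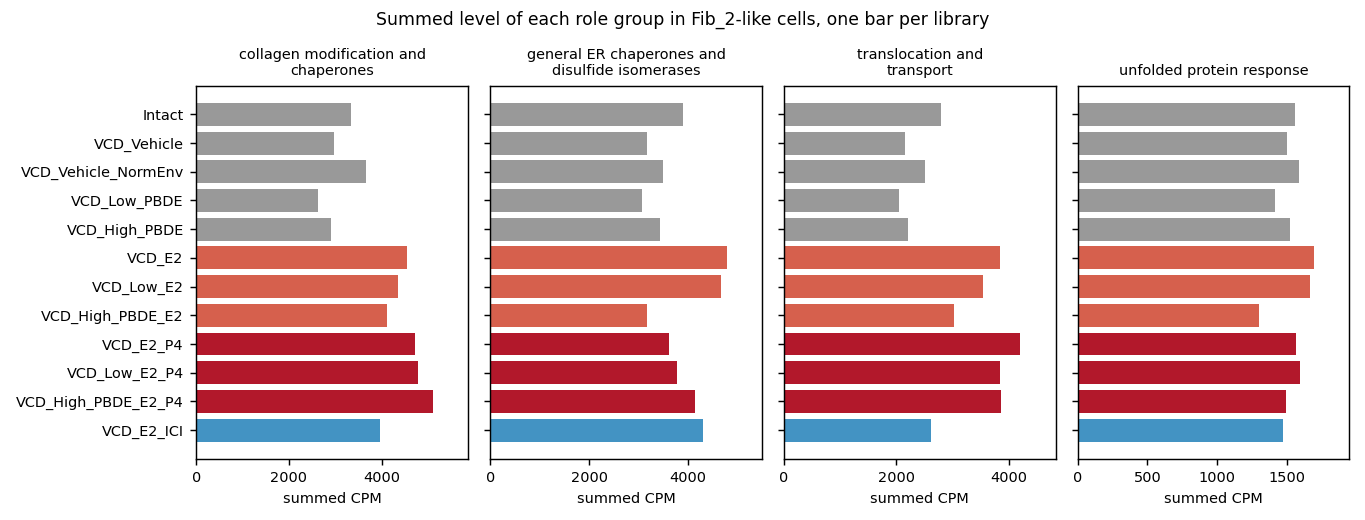
Each panel gives the summed CPM of a role group in Fib_2-like cells on an axis from 0, with 1 bar per library, grey without hormone treatment, light red with E2, dark red with E2 + P4 and blue with E2 and ICI. The collagen sum is 3959 CPM with ICI, and the transport sum 2616 CPM against 3021 to 4198 CPM in the 6 E2 libraries. In VCD_Vehicle_NormEnv, which has the same code as the ICI library, these sums are 3664 and 2512 CPM.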

How the data were processed

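Single-cell libraries of mouse mammary gland from 12 groups, 1 per group, were used. The authors deposited raw UMI counts per gene and cell, made with Cell Ranger 3.1.0 on mm10 (per the submitters' processing notes), from dissociated glands freed of lymph nodes and dead cells. Dissociation can raise stress genes and lose fragile cells.

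Minimums of 500 genes and 1000 UMIs and a maximum of 5% mitochondrial UMIs were set per cell. Fibroblasts lacked UMIs of Cspg4, Pecam1, Cd52, Ptprc, Krt14 and Epcam and had at least 4 of 6 fibroblast markers and at most 2 markers of any other cell type. Populations were the highest of 4 marker panel scores (at least 0.5, and 0.5 above the next). The panels hold marker genes named in the study, such as Dpp4, Fabp4, Tnc and Gdf10, and further genes that its text does not name. No doublet caller was run, and dropping the 5% of cells with most UMIs was an alternative. Because cells are not replicates, the counts of each population were added up within a library. The Fib_2-like sums held at least 2009345 UMIs.

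The sums were tested with edgeR 4.0.16 (R 4.3.3; TMM scaling, filterByExpr, quasi-likelihood test, Benjamini-Hochberg adjustment over all genes tested, threshold 0.05). The fit of the 9 libraries was additive in hormone and PBDE and had 4 residual degrees of freedom. It takes the PBDE levels as replicates of a hormone group once an average difference between PBDE levels is removed. Its p-values thus measure the spread that the additive layout leaves over, and not the spread between repeated libraries of a group. The E2 contrast sets the average of both hormone groups against no hormone, and P4 is E2 + P4 against E2. Populations were compared with the library as a block, without terms for PBDE or P4. Those p-values measure how differences between populations vary from library to library. Standard errors follow from the quasi-likelihood F. DESeq2 1.42.0, other scalings, filters and gates and leaving out each library were alternatives. The models were also run on simulated counts with known changes, and the outcome is not given here. Those counts held no library or PBDE effects, so they cannot check the layout of 1 library per group.

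Named members are, per role group, the 3 largest changes among those called and the 2 highest levels in Fib_2-like cells. The members and lists were chosen with earlier results of these data known. Of the list symbols, 7 pathway aliases and Ighm had no row. Gene positions were taken from GENCODE M21 (GRCm38).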

Additional observations from a re-analysis of the deposited data

Results flagged for a closer look

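For 12 of the 16 members described by name, the E2 change in Fib_2-like cells differed from its mean over the other 3 fibroblast populations, by a test of that difference with edgeR's quasi-likelihood method and Benjamini-Hochberg adjustment. The differences, as log2 fold changes in Fib_2-like minus the others, were 0.85 for Fkbp10 and 0.57 for Serpinh1 among the collagen genes. They were 0.45 for Pdia4, 0.42 for Pdia6 and 0.35 for Calr among the general chaperones. For the transport genes they were 1.11 for Kdelr3, 0.76 for Kdelr2, 0.72 for Ssr3 and 0.38 for Sec61g, and in the unfolded protein response group 0.82 for Creb3l1, 0.49 for Manf and 0.45 for Dnajb11. These members were named largely for their E2 change in Fib_2-like cells, so that neither their number nor their shared direction supports anything, and over all genes 13.8% were above 0 and 14.8% below. The fibrillar collagens moved with them, with 5 of 5 genes above 0 and a median difference of 1.42, and 7 of 10 dissociation stress genes were below 0 with a median of -0.65. The part of either in the members' differences was not tested.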

How the results depend on the processing

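Replicates could not be paired between groups because each group holds 1 library and the labels give no replicate number shared between groups. What was matched is the PBDE level within the hormone fit and the library in comparisons of populations. Of the counts of members called, 496 values under the alternatives stayed within 1.5 times the reported count and 82 did not. Shares of all genes are given above for all fibroblasts without a split and, in part, for the libraries without hormone. For the other alternatives they are not given, so that those counts have no baseline here. The cause was not tested in any case below, and leaving a library out or using fewer cells also lowers the precision.

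The count of 27 members higher with E2 in Fib_2-like cells was 22 to 30 with 1 library left out and 23 to 29 under the other scalings, filters, gates by score and terms, and 13 with marker pairs as the gate, which kept 14 to 87 Fib_2-like cells per library. It was also 13 for all fibroblasts without a split, which was added with the data in view. The 3 members lower became 1 with the library code as a term and 1 to 3 with 1 library left out (1 without VCD_Low_PBDE). Calr, Hsp90b1, Dnajb11, Ddit3, P4ha1, Ppib, Atf6 and Dnajb9 lost their call without at least 1 of the libraries, and the other members called did not. For E2 by population, the 26 members above 0 became 16 with marker pairs and 22 to 27 with 1 library left out, and the 1 below 0 to 1 (0 without VCD_Vehicle or VCD_Low_PBDE).

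In Fib_0-like cells the 4 members higher became 2 with DESeq2, 2 with a margin of 1 SD, 2 with thinned cells, 0 with the library code and 0 to 4 with 1 library left out (0 without VCD_Vehicle, VCD_Low_PBDE, VCD_Low_E2 or VCD_High_PBDE_E2_P4, 1 without VCD_E2, VCD_E2_P4, VCD_Low_E2_P4 or VCD_High_PBDE). The 2 lower became 0 with the library code and 0 to 3 with 1 library left out (at most 1 without any library but VCD_High_PBDE_E2). In Fib_1-like cells the 8 higher became 17 with marker pairs, 3 with thinned cells, 4 with the library code and 4 to 7 with 1 library left out (4 without VCD_Vehicle, VCD_E2, VCD_Low_PBDE, VCD_Low_E2 or VCD_High_PBDE, 5 without VCD_E2_P4). The 1 lower became 0 with the library code and 0 to 1 (0 without VCD_Vehicle, VCD_Low_PBDE or VCD_Low_E2). In Fib_3-like cells the 1 higher became 2 with DESeq2, 3 without a filter, 2 without a margin, 4 with marker pairs, 2 with the top 5% of cells dropped, 0 with the library code and 0 to 3 with 1 library left out (0 without VCD_Vehicle, VCD_Low_PBDE or VCD_High_PBDE, 3 without VCD_High_PBDE_E2). The 0 lower became 2 with library size alone, 1 without a filter, 2 without a margin, 1 with marker pairs, 1 with the top 5% dropped, 1 with shared barcodes dropped (chosen after seeing the data) and 1 with VCD_Vehicle_NormEnv added.

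For P4 in Fib_2-like cells, the 1 higher became 0 without a margin, 0 with marker pairs, 0 with the mitochondrial limit at 10%, 0 with thinned cells and 0 to 1 with 1 library left out. The 1 lower became 0 without a margin, 0 with marker pairs and 0 to 2 with 1 library left out (2 without VCD_High_PBDE_E2). In Fib_1-like cells the 0 higher became 1 with DESeq2 and 2 without a filter, and in Fib_0-like cells the 0 lower became 0 to 1 (1 without VCD_High_PBDE_E2). Between populations every count stayed within 1.5 times except in the 3 libraries without hormone (chosen after seeing the data). There the 27 members higher in Fib_2-like cells became 5, the 5 higher and 22 lower in Fib_0-like cells 12 and 13, and the 14 lower in Fib_3-like cells 6.

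Of the values of single members, 28 reversed. With marker pairs as the gate these were 6: Ssr4 in E2 by population (-0.042), P4ha3 in Fib_1-like (0.32) and Fib_3-like (-1.55), P4ha1 in Fib_2-like (-0.029) and Fib_3-like (0.18) and Atf6 in Fib_2-like cells (-0.34) against the other populations. In the libraries without hormone they were 22, all between populations. In Fib_0-like cells these were Hsp90b1 (0.15), Pdia4 (0.14), Calr (0.012), Sec61b (0.088) and Ssr1 (0.20). In Fib_2-like cells they were P4ha1 (-0.15), P4ha2 (-0.18), Serpinh1 (-0.061), Crtap (-0.035), Hsp90b1 (-0.081), Pdia4 (-0.015), Canx (-0.085), Sec61a1 (-0.089), Sec61b (-0.045), Sec61g (-0.11), Ssr3 (-0.13), Sec23a (-0.23), Sec24d (-0.040), Sec31a (-0.26), Kdelr2 (-0.031), Creb3l1 (-0.11) and Dnajb11 (-0.17). No scaling moved the median of all genes by over 0.1. Fib_2-like cells of 1 library are few, so low genes such as P4ha3 without hormone rest on few UMIs.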
